A study of Homo sapiens with 10 samples.

Results

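The 7 genes described here were SPARC, SNAI2 and VIM, which are active in mesenchymal cells, and CDH1, EPCAM, ESRP1 and ESRP2, which are active in epithelial cells. All 7 were among the 13920 genes counted in spheroids of the human breast cancer line T47D. SPARC was picked because its level was lower in SAMHD1-KO clone A1 than in wild-type (WT) cells in both pairs of experiments, and SNAI2 because it was lower in the SAMHD1-KO libraries of experiments 15 and 16. Both genes were thus chosen on their measured values, and those differences are given as a description, with no test. VIM and the epithelial genes were listed beside them. That choice, like the choice of the gene lists below, was also made with results of these data known. The libraries of WT spheroids and of clone A1 carry the experiment numbers 10, 11, 15 and 16, and those of clone A2 the numbers 15 and 16. Earlier and later pair below mean experiments 10 and 11 and experiments 15 and 16 by number only, since the labels give no dates. Both KO clones came from T47D cells transfected with a CRISPR-Cas9 construct against exon 5 of SAMHD1, each is a single clone, and RNA was taken on day 4 of spheroid culture. The 10 libraries thus comprised 4 WT, 4 clone A1 and 2 clone A2 libraries, with 2 libraries per group within an experiment pair. The study's methods call its sequenced samples biological duplicates, but what set the experiments apart is not given in the sources used here, so p-values measure only the spread between these libraries.

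Epithelial cells are held together by E-cadherin, the product of CDH1, and by the adhesion molecule EpCAM, and they splice a set of transcripts into epithelial isoforms through the RNA-binding proteins ESRP1 and ESRP2. In epithelial-mesenchymal transition, zinc finger repressors of the Snail family, SNAI2 (Slug) among them, bind E-box sequences in promoters such as that of CDH1, while the intermediate filament vimentin (VIM) and matrix proteins increase. SPARC is a secreted, collagen-binding matricellular protein that is made by stromal and invasive cells.

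Since Snail-family factors bind the E-box CANNTG, in practice most often as CACCTG or its complement CAGGTG, the promoter letters of SPARC and VIM are shown, with each E-box in capitals. Of the 7 genes, 2 had an entry in the promoter table from RefSeq used here. The windows hold the 250 bases before the annotated gene start on the coding strand of GRCh38.p14, at chr5:151686916-151687165 on the minus strand for SPARC and at chr10:17227991-17228240 on the plus strand for VIM.
SPARC: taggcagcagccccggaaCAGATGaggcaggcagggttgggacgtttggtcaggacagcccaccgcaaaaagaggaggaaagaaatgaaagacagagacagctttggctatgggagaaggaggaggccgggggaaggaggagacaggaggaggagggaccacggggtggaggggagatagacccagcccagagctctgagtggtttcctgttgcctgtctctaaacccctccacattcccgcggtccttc
VIM: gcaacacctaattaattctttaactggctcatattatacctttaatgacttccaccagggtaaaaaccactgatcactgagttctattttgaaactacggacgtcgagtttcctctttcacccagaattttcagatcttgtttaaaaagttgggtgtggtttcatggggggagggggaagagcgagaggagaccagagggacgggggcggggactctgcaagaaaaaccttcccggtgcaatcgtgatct
The SPARC window held 1 E-box on either strand, CAGATG, at positions −232 to −227 relative to the gene start, and neither CACCTG nor CAGGTG. No E-box was found in the VIM window. Over the 16748 promoter windows of listed genes with the same length, 54.6% held at least 1 CANNTG and 15.9% held CACCTG or CAGGTG, so these letters are common. A match is a description and not a bound site.

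The libraries held 40077369 to 51311482 counts each. Levels are given as CPM, which are counts divided by a TMM-adjusted library size, and levels of different genes are compared only per kilobase of exon. Exon length merged the exons of all annotated transcripts of a gene, so it can exceed that of the main transcript and lower such values. SAMHD1 was at 49.8 to 56.4 CPM in WT, at 22.5 and 23.0 CPM in clone A1 of experiments 10 and 11, at 6.44 and 6.15 CPM in clone A1 of experiments 15 and 16, and at 23.6 and 20.2 CPM in clone A2. The share of counts on mitochondrial genes was 7.79% to 8.48% in experiments 10 and 11 and 9.05% to 13.9% in experiments 15 and 16, with the highest value in clone A1 of experiment 15. The part of that share in the results below was not tested. In RNA from whole spheroids, fewer cells that make a transcript and less of it per cell cannot be told apart.

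T47D is known as an epithelial line, yet CDH1 and EPCAM, which define epithelial cells, were low and VIM was high. VIM was among the most abundant transcripts in every library, with a median of 244 CPM per kilobase, above 99.3% of the genes with a known exon length. SNAI2 followed at 9.38 CPM per kilobase, above 68.4% of genes. The epithelial genes were far lower, with medians of 1.70 for ESRP1, 1.22 for ESRP2, 0.345 for EPCAM and 0.180 for CDH1 on the same scale. CDH1 and EPCAM thus stood above 5.65% and 9.45% of genes only. SPARC, although grouped here with the mesenchymal genes, was also low, at a median of 0.476 CPM per kilobase. Both kinds of marker covered a wide range. Of the other mesenchymal genes, the matrix protein tenascin-C (TNC) had a median of 91.4, N-cadherin (CDH2) of 15.3 and the transcription factor ZEB1 of 7.70 CPM per kilobase, whereas ZEB2 was at 1.17, the collagen gene COL1A1 at 1.11, SNAI1 at 0.641, S100A4 at 0.474 and the actin-binding TAGLN at 0.352. Of the other epithelial junction genes, the catenin genes CTNNA1 and CTNNB1 had medians of 29.9 and 27.8, the desmosomal cadherin DSG2 of 14.7 and CD24 of 13.3 CPM per kilobase, whereas the tight junction claudins CLDN1, CLDN3 and CLDN4 were at 0.329, 0.275 and 0.0796, SPINT2 at 0.186, the polarity gene CRB3 at 0.159 and the plakin PPL at 0.0608. The identity of the libraries was not tested beyond these markers.

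**Figure D1:**
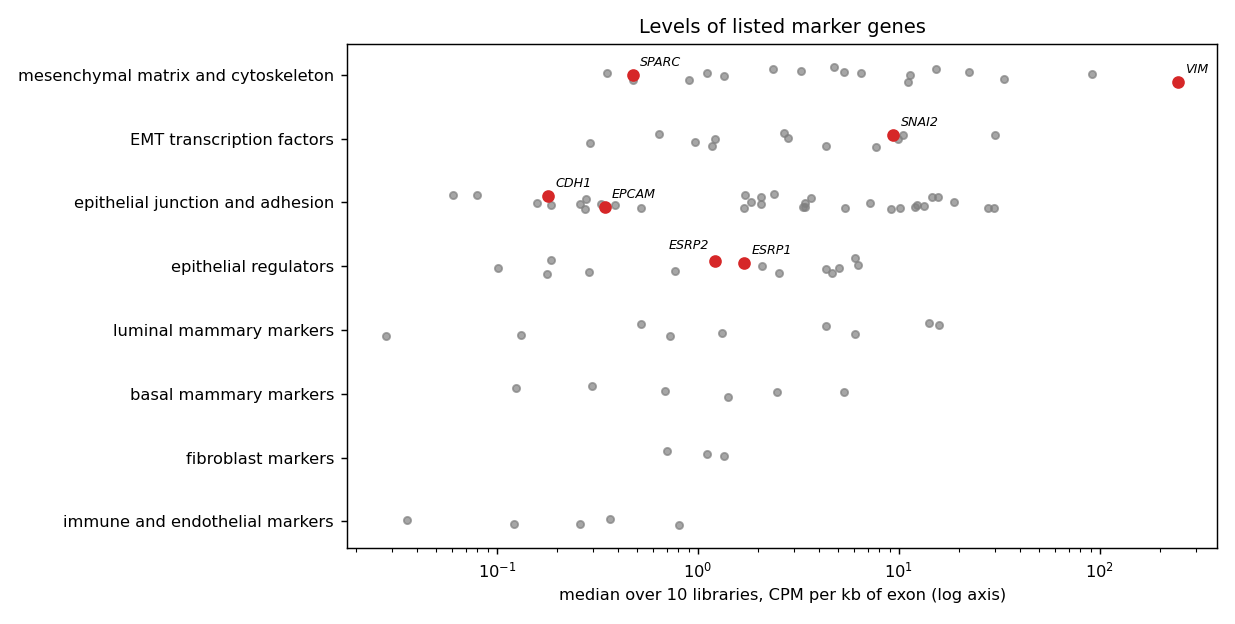
Median level over the 10 libraries, in CPM per kilobase of exon on a log axis, of each listed gene by marker list, with the 7 genes in red and named (vertical scatter within a row only separates points). VIM, at 244 CPM per kilobase, lies furthest to the right, while CDH1 (0.180) and EPCAM (0.345) lie near the lower end of the epithelial list.

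Of 15 luminal mammary markers, 9 were listed. Estrogen receptor alpha (ESR1), for which T47D cells are known to be positive, was at 0.0133 to 0.116 CPM per kilobase. Keratin 8 (KRT8, 0.451 to 1.32) and the progesterone receptor gene PGR (1.05 to 1.41) overlapped on this scale, and keratin 18 (KRT18, 11.8 to 19.7), GATA3 (4.54 to 7.29) and FOXA1 (3.19 to 6.06) were higher. KRT19, AGR2, TFF1, TFF3 and SPDEF were absent from the listed genes and were not used here. Summed luminal markers were 171 to 177 CPM in WT and 155 to 165 CPM in clone A1 of experiments 10 and 11, and 166 to 167 CPM in WT, 171 to 174 CPM in clone A1 and 146.8 to 147 CPM in clone A2 of experiments 15 and 16. Of 13 basal markers, 6 were listed, with sums of 91.4 to 125 CPM over the libraries, and KRT5, KRT14, KRT17 and TP63 were not listed. Of 13 immune and endothelial markers, 5 were listed, with sums of 3.84 to 5.39 CPM over the libraries, and PTPRC, CD3E, PECAM1 and CDH5 were not listed. Of 9 fibroblast markers, COL1A1, COL3A1 and PDGFRA were listed and DCN, LUM, FAP and PDGFRB were not. Their sum was 28.7 to 28.9 CPM in WT and 20.4 to 21.2 CPM in clone A1 of experiments 10 and 11, and 25.5 to 28.1 CPM in WT, 18.96 to 22.9 CPM in clone A1 and 18.8 to 19.7 CPM in clone A2 of experiments 15 and 16. The fibroblast sum was therefore lower in the SAMHD1-KO libraries in both experiment pairs, as SPARC was, and its part in the SPARC values was not tested. COL1A1, COL3A1 and PDGFRA each lay lower in both clone A1 libraries than in both WT libraries of experiments 10 and 11. COL1A1 was at 7.94 and 11.04 CPM in WT and 5.91 and 6.57 CPM in clone A1 of that pair. PDGFRA was at 2.88 and 2.591 CPM in WT and 1.78 and 2.588 CPM in clone A1, so its ranges nearly met. In experiments 15 and 16 the lower sum lay in COL3A1, whose levels in both pairs are given with the matrix genes. There COL1A1 was at 10.6 and 10.4 CPM in WT, 8.96 and 10.7 CPM in clone A1 and 11.4 and 9.66 CPM in clone A2, and PDGFRA was at 7.71 and 6.71 CPM in WT, 7.24 and 9.27 CPM in clone A1 and 6.66 and 6.79 CPM in clone A2, so both genes overlapped between WT and each clone.

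SPARC (chromosome 5, 151661096 to 151686915 in GRCh38) was the least abundant of the 3 mesenchymal genes and, of all 7, differed most between WT and clone A1. Its level in experiments 10 and 11 was 1.91 and 2.51 CPM in WT and 0.290 and 0.696 CPM in clone A1, from 88, 123, 14 and 32 counts. The later pair gave 7.21 and 7.10 CPM in WT, 0.411 and 0.505 CPM in clone A1 and 3.63 and 2.71 CPM in clone A2. Every clone A1 library thus lay below every WT library, and clone A2 lay between clone A1 and WT of the same experiments but above WT of experiments 10 and 11. The 4 clone A1 libraries did not separate by experiment pair. Such a pattern, with all 4 clone A1 libraries below all 4 WT libraries, was found for 1.57% of all genes, and SPARC was chosen for it. The log2 fold change of clone A1 against WT was −2.17 (SE 0.37, n = 2 against 2) in experiments 10 and 11 and −3.96 (SE 0.23, n = 2 against 2) in experiments 15 and 16. Counted directly, 650 SPARC reads in WT stood against 40 in clone A1 in experiments 15 and 16, which gave a level 15.6-fold lower in clone A1 (95% exact interval 11.3 to 22.0, counting error only). For clone A2 the log2 fold change against the same WT libraries was −1.18 (SE 0.17), a level 2.27-fold lower (95% exact interval 1.98 to 2.62). Both intervals rest on WT libraries used to choose SPARC, cover counting error only and are no test of its difference. Few reads stood behind the values of experiments 10 and 11. Their log2 fold change was −2.92 when clone A1 of experiment 11 was left out and −1.66 when that of experiment 10 was.

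The WT libraries that served to choose SPARC also differed between the experiment pairs, and this difference too is given with no test. SPARC was 3.23-fold higher in WT of experiments 15 and 16 than in WT of experiments 10 and 11 (log2 fold change 1.69, SE 0.24), and the ranges did not overlap. In clone A1 the levels of the 2 pairs overlapped, so the wider gap to WT in the later pair (change of the log2 fold change −1.79, SE 0.45) went with the higher level in WT. Leaving out clone A1 of experiment 11 gave a change of −1.05, and leaving out that of experiment 10 gave −2.30. From lowest to highest, the order of SPARC was clone A1, WT of experiments 10 and 11, clone A2 and WT of experiments 15 and 16. Of these neighbours, WT of experiments 10 and 11 and clone A2 differed in mean by 0.965 CPM, less than the sum of their SDs (1.07 CPM).

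**Figure D2:**
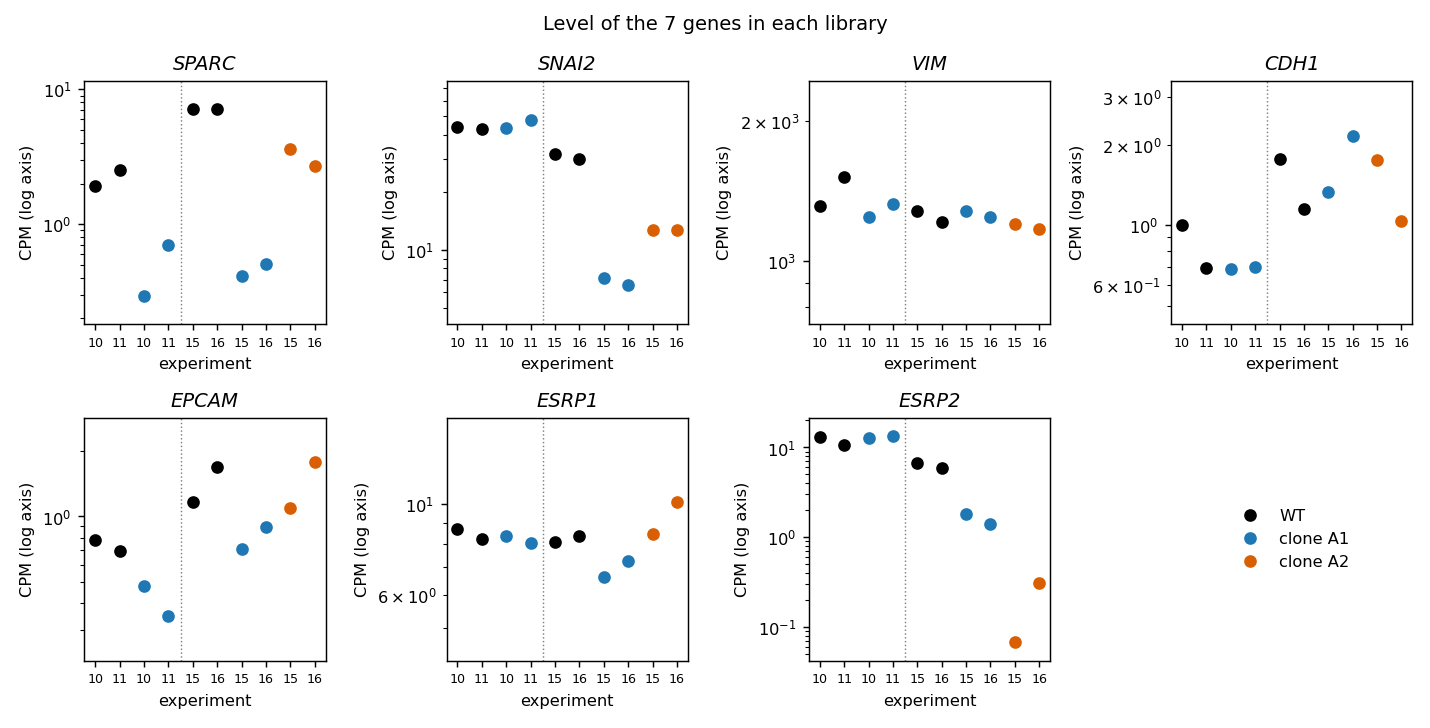
Level of each of the 7 genes in the 10 libraries, in CPM on a log axis whose range differs between panels, with WT in black, clone A1 in blue and clone A2 in orange, and a dotted line between experiments 10 and 11 and experiments 15 and 16. SPARC is lowest in the 4 clone A1 libraries (0.290 to 0.696 CPM), SNAI2 and ESRP2 are low only in the KO libraries right of the line, and VIM stays between 1175 and 1518 CPM.

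SNAI2 (chromosome 8) had a different course from SPARC. Experiments 10 and 11 gave 44.1 and 43.0 CPM in WT and 43.2 and 47.7 CPM in clone A1, so the ranges overlapped. In experiments 15 and 16 it was at 31.7 and 29.8 CPM in WT, at 7.15 and 6.56 CPM in clone A1 and at 12.7 and 12.7 CPM in clone A2. All 4 KO libraries of experiments 15 and 16 thus lay below every other library, a pattern whose share of all genes was not counted. The log2 fold change against WT was −2.17 (SE 0.093) in clone A1 and −1.28 (SE 0.087) in clone A2, and both differences were used to choose the gene. The comparison in experiments 10 and 11 was not used, and there the log2 fold change of clone A1 was 0.063 (SE 0.094, 95% interval −0.14 to 0.27, edgeR adjusted p = 0.877). Between the clones, whose libraries were used to choose the gene, SNAI2 was 1.84-fold higher in clone A2 than in clone A1 (log2 fold change 0.88, SE 0.097), given as a description. The order from lowest to highest was clone A1 and clone A2 of experiments 15 and 16, WT of experiments 15 and 16, and then WT and clone A1 of experiments 10 and 11, whose difference of 1.95 CPM was below the sum of their SDs (3.92 CPM). Within WT the level was lower in the later pair, with a log2 fold change of −0.50 (SE 0.085).

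ESRP2 (chromosome 16, 68229033 to 68236127 in GRCh38), which sets epithelial splice choices together with ESRP1, was the only 1 of the 4 epithelial genes that passed the test in either clone against WT. In experiments 10 and 11 it was at 12.97 and 10.6 CPM in WT and at 12.8 and 13.4 CPM in clone A1. The levels in experiments 15 and 16 were 6.76 and 5.91 CPM in WT, 1.83 and 1.40 CPM in clone A1 and 0.0673 and 0.312 CPM in clone A2. The 2 clone A2 values came from 3 and 16 reads, with 95% exact counting intervals of 0.0139 to 0.197 CPM and 0.179 to 0.507 CPM, against 268 and 303 reads in WT. The 4 KO libraries of experiments 15 and 16 lay below all others, and clone A2 lay below clone A1. How many of all genes had this order was not counted. ESRP2 fell in clone A1, with a log2 fold change of −1.97 (SE 0.24, edgeR adjusted p = 9.35e-05), and clone A2 showed the larger fall (log2 fold change −4.98, SE 0.33, edgeR adjusted p = 2.26e-07), 2 comparisons that share their WT libraries. In counts this was 3.89-fold lower in clone A1 (95% exact interval 3.23 to 4.71) and 31.7-fold lower in clone A2 (95% exact interval 20.1 to 53.0, 19 against 571 reads). The log2 fold change in clone A2 was −6.50 without clone A2 of experiment 16 and −4.33 without clone A2 of experiment 15, and the adjusted p stayed at or below 7.65e-07 in all 11 alternatives.

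The clones differed in ESRP2 in the direction opposite to SPARC and SNAI2. Clone A2 stood below clone A1 by a log2 fold change of −3.02 (SE 0.38, edgeR adjusted p = 1.20e-04), which was −4.53 without clone A2 of experiment 16 and −2.36 without clone A2 of experiment 15. For SPARC the log2 fold change of clone A2 against clone A1 was 2.78 (SE 0.24), given as a description. ESRP2 did not pass the test in clone A1 of experiments 10 and 11 (log2 fold change 0.15, SE 0.13, 95% interval −0.12 to 0.43, edgeR adjusted p = 0.789). The change of the clone A1 effect between the experiment pairs was itself past the threshold (−2.12, SE 0.22, edgeR adjusted p = 7.03e-05). In WT alone ESRP2 fell from the earlier to the later pair (log2 fold change −0.90, SE 0.14, edgeR adjusted p = 7.71e-04), opposite to SPARC. The levels therefore ran from clone A2 through clone A1 and WT of experiments 15 and 16 up to WT and clone A1 of experiments 10 and 11, and the last pair of groups overlapped.

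ESRP1 (chromosome 8), the paralogue of ESRP2, passed the test in neither clone against WT. Its level was 8.09 to 8.68 CPM in the 4 WT libraries, 8.35 and 8.03 CPM in clone A1 of experiments 10 and 11, 6.65 and 7.27 CPM in clone A1 of experiments 15 and 16, and 8.43 and 10.1 CPM in clone A2. The libraries of clone A1 in experiments 15 and 16 were the lowest, and the other groups overlapped with a neighbour. Against WT of experiments 15 and 16 the log2 fold change was −0.24 (95% interval −0.51 to 0.024, edgeR adjusted p = 0.234) in clone A1 and 0.17 (95% interval −0.084 to 0.43, edgeR adjusted p = 0.342) in clone A2. Between the clones it was 0.41 (SE 0.12, edgeR adjusted p = 0.0592). This last value passed the threshold with the experiment number as a block (adjusted p = 0.0216) and without clone A2 of experiment 15 (0.0442), WT of experiment 15 (0.0463) or WT of experiment 16 (0.0495). Counts per gene do not show the splicing of the transcripts that the ESRP proteins act on.

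VIM (chromosome 10, 17228241 to 17237593 in GRCh38) was at 1314 and 1518 CPM in WT and at 1242 and 1325 CPM in clone A1 of experiments 10 and 11. In experiments 15 and 16 it was at 1283 and 1216 CPM in WT, at 1283 and 1246 CPM in clone A1 and at 1200 and 1175 CPM in clone A2. Clone A2 lay lowest, just below WT of the same experiments, and WT of experiments 10 and 11 reached highest. The log2 fold change against WT was 0.017 (95% interval −0.11 to 0.14, edgeR adjusted p = 0.899) in clone A1 and −0.076 (95% interval −0.20 to 0.048, edgeR adjusted p = 0.392) in clone A2. For clone A1 of experiments 10 and 11 it was −0.14 (95% interval −0.31 to 0.028, edgeR adjusted p = 0.751), which became −0.24 (adjusted p = 0.00124) without WT of experiment 10. Between the experiment pairs in WT it was −0.18 (SE 0.075, edgeR adjusted p = 0.117), past the threshold with the experiment number as a block (adjusted p = 0.00760) or without WT of experiment 10 (adjusted p = 0.00758).

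CDH1 (chromosome 16, 68737292 to 68835537 in GRCh38) was near the lower limit of what these libraries resolve, from 32 to 94 reads. In experiments 10 and 11 its level was 0.998 and 0.694 CPM in WT and 0.684 and 0.696 CPM in clone A1. In experiments 15 and 16 it was 1.76 and 1.15 CPM in WT, 1.33 and 2.16 CPM in clone A1 and 1.75 and 1.03 CPM in clone A2. WT and both clones overlapped within the later pair, and over all 10 libraries the log2 CPM of CDH1 and SNAI2 correlated at −0.713, a description over libraries that share experiments and clones. For WT of experiments 15 and 16 against WT of experiments 10 and 11, the log2 fold change of CDH1 was 0.77 (95% interval 0.071 to 1.47, edgeR adjusted p = 0.129). The log2 fold change against WT was 0.27 (95% interval −0.40 to 0.94, edgeR adjusted p = 0.641) in clone A1 and −0.063 (95% interval −0.75 to 0.62, edgeR adjusted p = 0.918) in clone A2. Both signs changed when single libraries were left out. P-cadherin (CDH3), whose gene midpoint lies 96.9 kb from that of CDH1, did fall in both clones (log2 fold change −1.28, edgeR adjusted p = 0.00684 in clone A1 and −1.63, edgeR adjusted p = 7.44e-04 in clone A2). The call in clone A1 was lost without clone A1 of experiment 15.

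EPCAM (chromosome 2, 47369311 to 47387020 in GRCh38) was at 0.781 and 0.694 CPM in WT and at 0.477 and 0.348 CPM in clone A1 of experiments 10 and 11, from 16 to 36 reads. The later levels were 1.16 and 1.70 CPM in WT, 0.708 and 0.895 CPM in clone A1 and 1.10 and 1.78 CPM in clone A2. Clone A1 lay below WT within each experiment pair, while clone A2 and WT overlapped. The share of all genes with this pattern was not counted. The log2 fold change of clone A1 was −0.83 (SE 0.37, edgeR adjusted p = 0.716) in experiments 10 and 11 and −0.85 (SE 0.32, edgeR adjusted p = 0.0960) in experiments 15 and 16, and the latter passed the threshold with the experiment number as a block (adjusted p = 0.0384). In clone A2 it was 0.0023 (95% interval −0.62 to 0.62, edgeR adjusted p = 0.996). EPCAM was 1.95-fold higher in WT of experiments 15 and 16 than in WT of experiments 10 and 11 (log2 fold change 0.96, SE 0.31, edgeR adjusted p = 0.0491), a call that held in 2 of 13 alternatives. It was lost with DESeq2 (adjusted p = 0.118), with RLE factors (0.0501), with a filter on mean counts (0.0512) and when any of the 8 libraries of the fit was left out (0.0557 to 0.407).

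**Figure D3:**
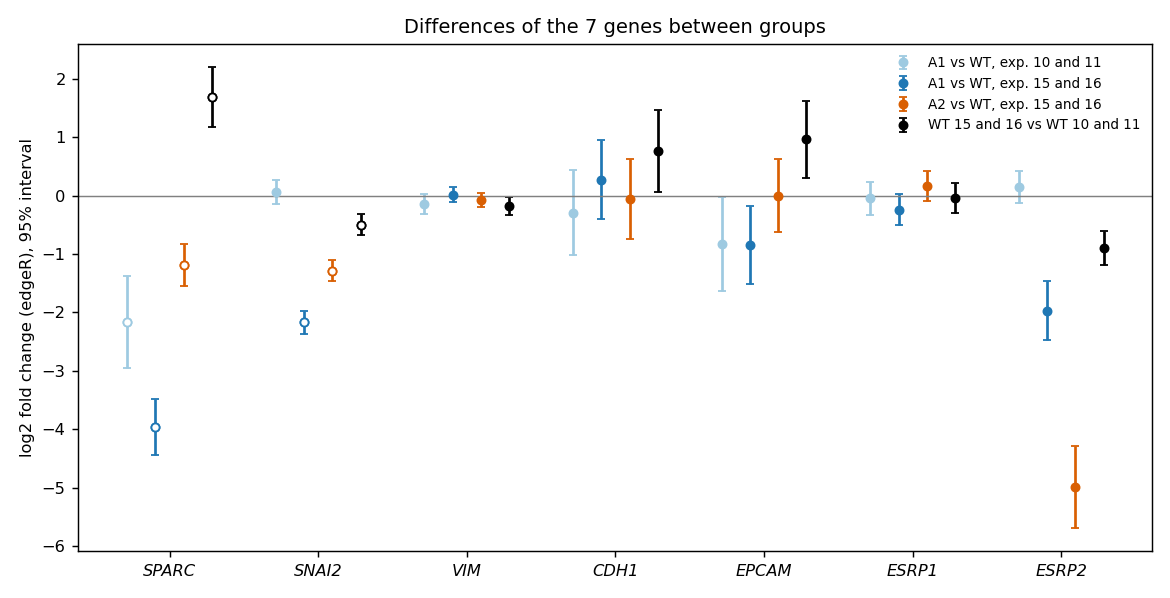
Log2 fold changes with 95% intervals for the 7 genes in 4 comparisons (light blue, clone A1 against WT in experiments 10 and 11; blue and orange, clones A1 and A2 against WT in experiments 15 and 16; black, WT of experiments 15 and 16 against WT of experiments 10 and 11), with open circles for differences between libraries used to choose the gene, given with no test. ESRP2 lies at −1.97 and −4.98 in the clones in experiments 15 and 16 and at 0.15 in clone A1 in experiments 10 and 11, while intervals for VIM, CDH1 and ESRP1 in both clones include 0.

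The calls among the tested members are set here beside the share of all genes called. In experiments 15 and 16, 1 of 5 tested members (ESRP2) was called in clone A1, where 13.2% of all genes were called, and 1 of 5 in clone A2, where 21.2% were. Between the clones 1 of 5 was called (ESRP2), against 6.16% of all genes. For experiments 10 and 11, edgeR called 0 of 6 in clone A1 (1 at an unadjusted p under 0.05, 0 with DESeq2), where 0.0862% of all genes, 12 in number, were called, and 3144 without WT of experiment 10. For the change of the clone A1 effect 1 of 5 was called (ESRP2), against 1.91% of all genes, and between the WT pairs 2 of 5 (EPCAM and ESRP2, 1 with DESeq2), against 14.6%. SPARC, SNAI2 and ESRP2 were also lower in all 4 KO than in both WT libraries of experiments 15 and 16, as were 17.4% of all genes, a common pattern. Counts over all genes depended on the block. With the experiment number as a block they were 3237 in place of 1834 for clone A1, 4511 in place of 2948 for clone A2, 1947 in place of 858 between the clones, 229 in place of 12 for experiments 10 and 11, 1081 in place of 266 for the change and 3759 in place of 2035 between the WT pairs.

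The other transcription factors of epithelial-mesenchymal transition were read beside SNAI2. Of 16 in the list, SNAI2 included, 13 were counted, and of the 12 other than SNAI2, 1 was called in each clone in experiments 15 and 16, lower in both cases, where 13.2% of all genes were called in clone A1 and 21.2% in clone A2. It was TCF3, an E-box-binding E protein, in clone A1 (log2 fold change −0.21, edgeR adjusted p = 0.0389) and SOX9, a progenitor factor, in clone A2 (−0.48, edgeR adjusted p = 0.00235). In the other clone the log2 fold change was −0.11 for TCF3 and −0.087 for SOX9 (edgeR adjusted p = 0.242 and 0.621). The call of TCF3 was lost when either WT or either clone A1 library of these experiments was left out and in the fit of all 10 libraries, with adjusted p up to 0.152. ZEB1 had log2 fold changes of 0.019 in clone A1 and 0.11 in clone A2 (edgeR adjusted p = 0.912 and 0.368), and SNAI1, the closest relative of SNAI2, was at 0.716 to 1.45 CPM throughout. The list's median was 0.018 in clone A1 and −0.12 in clone A2, beside 0.0026 and 0.0043 for all genes. Of 15 partners and turnover factors of Snail proteins, 3 rose and 2 fell in clone A1 and 3 rose and 4 fell in clone A2, with medians of −0.022 and −0.051. The corepressor CTBP2 (log2 fold change 0.35 in clone A1 and 0.34 in clone A2, edgeR adjusted p = 0.00162 and 8.70e-04) and the F-box protein FBXL14 (0.33 and 0.52, edgeR adjusted p = 0.0143 and 2.48e-04), which marks Snail proteins for degradation, rose in both. EZH2 rose in both too, while SIN3A and WTIP fell in both, and AJUBA and the F-box protein BTRC fell in clone A2. Some of these calls were lost without single libraries. The call of FBXL14 in clone A1 was lost without WT of experiment 15 or clone A1 of experiment 16 and in the fit of all 10 libraries, with adjusted p up to 0.0968.

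Of 17 mesenchymal matrix and cytoskeleton genes other than SPARC, 2 rose and 3 fell in each clone in experiments 15 and 16, beside 13.2% of all genes called in clone A1 and 21.2% in clone A2. COL3A1, a fibrillar collagen, fell furthest. It was at 17.9 and 15.3 CPM in WT and at 12.7 and 12.0 CPM in clone A1 of experiments 10 and 11, and at 9.75 and 8.46 CPM in WT, 2.76 and 2.98 CPM in clone A1 and 1.66 and 2.38 CPM in clone A2 of experiments 15 and 16. The KO libraries lay below WT in each pair. In experiments 15 and 16 this held for 17.4% of all genes, and the share for both pairs was not counted. Its log2 fold change in the later pair was −1.66 (edgeR adjusted p = 2.23e-05) for clone A1 and −2.16 for clone A2 (edgeR adjusted p = 1.13e-06), and the change of the clone A1 effect between pairs was −1.23 (edgeR adjusted p = 0.00184). MMP14, a membrane-bound matrix protease, fell in both clones (−0.80 and −0.62, edgeR adjusted p = 1.24e-04 and 4.11e-04). The fibronectin gene FN1 rose in both (0.20 and 0.45, edgeR adjusted p = 0.0308 and 5.32e-05), and its call in clone A1 was lost without clone A1 of experiment 16 or either WT library and in the fit of all 10 libraries, with adjusted p up to 0.244. LOX, a collagen cross-linking enzyme, rose in clone A1 (0.49, edgeR adjusted p = 4.52e-04), a call that ended in the fit of all 10 libraries (adjusted p = 0.562), and had a log2 fold change of 0.040 in clone A2 (edgeR adjusted p = 0.746). The list's median was −0.034 in clone A1 and −0.070 in clone A2.

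Of the 6 counted relatives of SPARC, 1 rose and 1 fell in each clone, where 13.2% (clone A1) and 21.2% (clone A2) of all genes were called, with medians of 0.077 and −0.070. SPOCK1, a secreted proteoglycan, fell in both (−0.63, edgeR adjusted p = 0.0456 in clone A1 and −0.81, edgeR adjusted p = 0.00851 in clone A2). Its call was lost in clone A1 with DESeq2, in the fit of all 10 libraries and when any library of clone A1 or WT was left out (adjusted p up to 0.202), and in clone A2 without clone A2 of experiment 15 or WT of experiment 16 (adjusted p up to 0.0964). SPOCK3 rose in clone A2 (0.77, edgeR adjusted p = 1.64e-04) and stood at 0.30 in clone A1 (edgeR adjusted p = 0.0974). FSTL1, the most abundant relative with a median of 22.4 CPM per kilobase, had log2 fold changes of 0.091 and −0.0042 (edgeR adjusted p = 0.322 and 0.970).

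Epithelial junction and adhesion genes moved in both directions. Of 34 counted, 4 rose and 4 fell in clone A1, where 13.2% of all genes were called, and 7 rose and 4 fell in clone A2, where 21.2% were, with medians of 0.025 and 0.0053. The protease inhibitor SPINT1 fell in both (−0.78 and −1.57, edgeR adjusted p = 0.00178 and 3.07e-06), from 9.55 and 8.40 CPM in WT to 5.39 and 5.07 CPM in clone A1 and 3.32 and 2.73 CPM in clone A2. Like ESRP2 it was lower in clone A2 than in clone A1 (−0.80, edgeR adjusted p = 0.00324), a call that was lost without clone A2 of experiment 16 (adjusted p = 0.0550). CD24, a surface glycoprotein, rose in both clones (0.51 and 0.32, edgeR adjusted p = 2.02e-04 and 0.00348), but its call in clone A2 was lost without WT of experiment 16 (adjusted p = 0.0539). The tight junction protein occludin (OCLN) rose in both clones (0.51 and 0.30, edgeR adjusted p = 5.67e-04 and 0.0114), and its call in clone A2 was lost without clone A2 of experiment 16 or WT of experiment 15 (adjusted p up to 0.104). The desmosomal plakophilin PKP2 also rose in both (0.46 and 0.35, edgeR adjusted p = 0.00303 and 0.00992), with the call in clone A2 lost without clone A2 or WT of experiment 15 (adjusted p up to 0.126). The plakoglobin gene JUP fell in both (−0.27 and −0.38, edgeR adjusted p = 0.0256 and 0.00192), and its call in clone A1 was lost without clone A1 of experiment 16 or either WT library and in the fit of all 10 libraries (adjusted p up to 0.138).

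Of 14 epithelial regulators, ESRP1 and ESRP2 included, 2 rose and 1 (ESRP2) fell in clone A1, and 2 rose and 3 fell in clone A2, with medians of 0.11 and 0.030. The shares of all genes called, against which this list and the next lists are read, were 13.2% in clone A1 and 21.2% in clone A2. KLF5, a zinc finger activator of epithelial genes, rose in both (0.53 and 0.69, edgeR adjusted p = 4.75e-04 and 1.81e-05) and FOXA1, a luminal pioneer factor, did too (0.47 and 0.31, edgeR adjusted p = 0.00103 and 0.00898), although in clone A2 the call of FOXA1 was lost without WT of experiment 15 or clone A2 of experiment 16 (adjusted p up to 0.0626). Besides ESRP2, TFAP2C, a transcription factor of epithelial differentiation, fell in clone A2 (−0.76, edgeR adjusted p = 6.52e-05) and stood at −0.26 in clone A1 (edgeR adjusted p = 0.0939). Of 13 transcripts with exons that the ESRP proteins are known to regulate, 3 were called in clone A1, each lower, and 1 rose and 4 fell in clone A2, with medians of −0.056 and −0.019. The hyaluronan receptor CD44 fell in both (−0.61, edgeR adjusted p = 0.00237 and −0.46, edgeR adjusted p = 0.00771), with an adjusted p of 0.0673 in clone A2 without clone A2 of experiment 16. Of 22 genes of the TGF-beta pathway, a known inducer of Snail-family factors, 1 rose and 1 fell in clone A1, and 1 rose and 3 fell in clone A2, with medians of 0.027 and −0.065. SMAD6, an inhibitory SMAD, fell in both (−0.71 and −0.52, edgeR adjusted p = 5.23e-04 and 0.00237).

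In experiments 10 and 11, where 12 of all genes were called but 3144 were without WT of experiment 10, few listed genes passed the test. Of 143 listed genes other than the 7 members, 1 was called in clone A1 (0.699%, against 0.0862% of all genes), with 11 at an unadjusted p under 0.05 and 1 called by DESeq2. It was KRT8 (−0.94, edgeR adjusted p = 0.0437, and 0.208 without clone A1 of experiment 10), a keratin of simple epithelia. KRT8 also fell in both clones in experiments 15 and 16 (−0.70 and −0.98, edgeR adjusted p = 0.0116 and 6.64e-04), and the call in clone A1 was lost without clone A1 or WT of experiment 16 (adjusted p up to 0.0897). It was at 3.10 to 5.02 CPM in the 6 KO libraries, below the 6.86 to 9.07 CPM of the 4 WT libraries. All 4 clone A1 libraries lay below all 4 WT libraries for 1.57% of all genes, and the share with clone A2 added was not counted. Of the 143, 34 were called in clone A1 (23.8%, against 13.2% of all genes) and 41 in clone A2 (28.7%, against 21.2%) in experiments 15 and 16, and 11 and 17 of these held in all 11 alternatives. Between the WT pairs 33 of 143 were called (23.1%, against 14.6% of all genes). Among them KLF5 was higher in experiments 15 and 16 (1.07, edgeR adjusted p = 1.37e-05) and COL3A1 was lower there (−0.87, edgeR adjusted p = 3.39e-04).

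**Figure D4:**
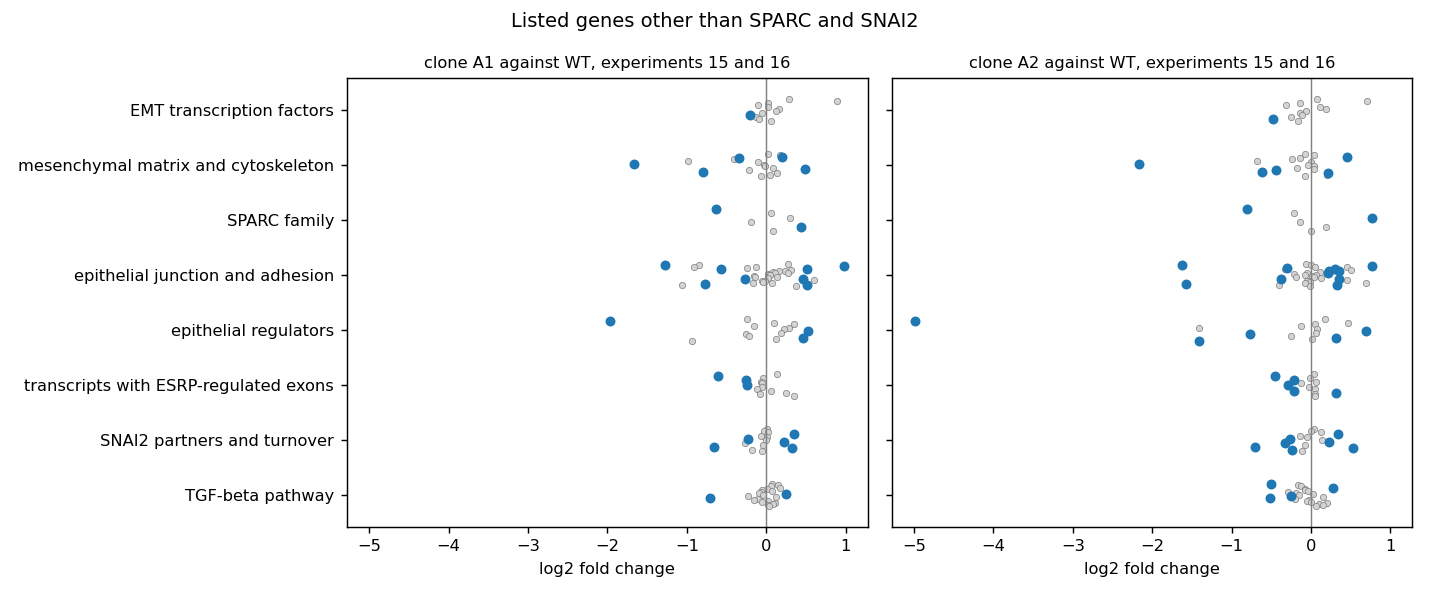
Log2 fold change against WT in experiments 15 and 16 of every listed gene other than SPARC and SNAI2, for clone A1 (left) and clone A2 (right), with genes past the threshold in filled blue and the others open (vertical scatter only separates points). ESRP2 stands apart in the row of epithelial regulators, at −1.97 and −4.98, and COL3A1 in the row of matrix genes, at −1.66 and −2.16, while most listed genes lie near 0.

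The genes whose log2 CPM followed each member most closely over the 10 libraries are given as a description, since the libraries share experiments and clones. For SPARC, among 12885 other genes with a mean of at least 1 CPM, they were SHISA4 (Pearson's r = 0.964), IFI27L2 (0.920), PLIN2 (0.920), SIX2 (0.919) and PPM1M (0.899), and the most opposite were ARHGEF7 (−0.909), C3orf80 (−0.903) and HGSNAT (−0.901). SHISA4 was at 3.30 to 3.65 CPM in clone A1 and at 4.25 to 5.05 CPM in the other libraries. For SNAI2 they were DCAF4 (0.984), HTR6 (0.984), ESYT3 (0.980), IRGQ (0.979) and NPR1 (0.978), and the most opposite were TTC9 (−0.983), NIPA1 (−0.982) and the integrin gene ITGA6 (−0.980). For ESRP2 they were TFAP2C (0.985), PID1 (0.981) and MRI1 (0.973). TFAP2C was at 14.3 to 18.1 CPM in the 6 libraries that were not later KO, at 12.7 and 12.4 CPM in clone A1 and at 8.70 and 9.02 CPM in clone A2 of experiments 15 and 16, the same order of groups as ESRP2. The nearest were LAMTOR2 for VIM (0.967), ZNF287 for CDH1 (0.963), JAK3 for EPCAM (0.947) and MFAP1 for ESRP1 (0.968). Among the members, SNAI2 and ESRP2 correlated at 0.752, SPARC and EPCAM at 0.719, SNAI2 and CDH1 at −0.713, and SPARC and SNAI2 at 0.219.

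The genes around SPARC, SNAI2 and ESRP2 had median differences near 0. Within 10 Mb of SPARC, the median log2 fold change of 79 other genes was −0.016 in clone A1 and −0.0038 in clone A2 in experiments 15 and 16. Around SNAI2 the median of 52 genes was 0.050 and 0.0092, and around ESRP2 that of 135 genes was −0.016 and 0.031. CDH1 lies within the window of ESRP2 and did not pass the test in either clone, whereas its neighbour CDH3 fell in both (−1.28 and −1.63). In the same window FA2H, a fatty acid hydroxylase gene named after its values were seen, rose in both (1.85 and 1.90).

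**Figure D5:**
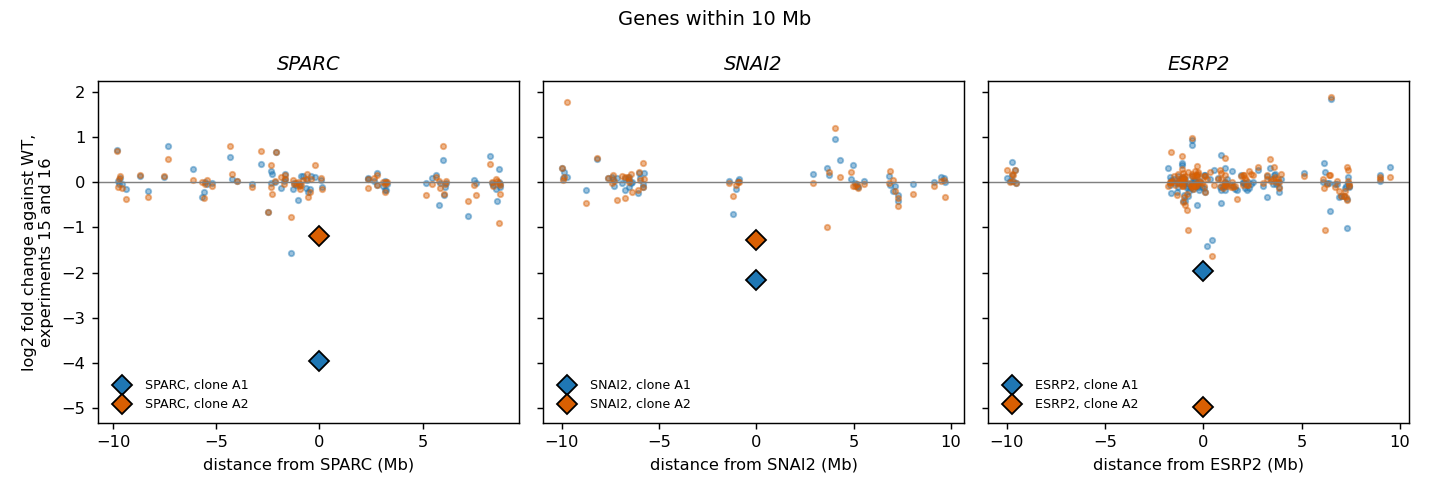
Log2 fold change against WT in experiments 15 and 16 of SPARC, SNAI2 and ESRP2 (diamonds) and of the other genes within 10 Mb (points), by distance from the gene in Mb, with clone A1 in blue and clone A2 in orange. The diamonds lie from −1.18 to −4.98, each below all neighbours in the same clone, whose medians lie between −0.016 and 0.050.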

How the data were processed

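Stranded mRNA libraries of T47D spheroids were sequenced and, per the labels, processed by the authors with HISAT2 and StringTie on GRCh38. The deposited values are read counts per NCBI gene, not normalized, and the authors kept genes without a count of 0 (13920 genes, of which 13885 had a symbol in the gene table used here, lowest count 1). The counting tool's strand setting is not given in the sources used here, so reads of overlapping antisense genes could not be told apart. Each library held 40077369 to 51311482 counts, and intervals on counts are 95% exact and cover counting error only.

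Tests were run with edgeR 4.0.16 in R 4.3.3 (TMM, robust quasi-likelihood test) over all genes, with Benjamini-Hochberg adjustment and a threshold of 0.05. The 3 groups of experiments 15 and 16 were in 1 fit, experiments 10 and 11 in a fit of their own, and WT and clone A1 of all 4 experiments in a fit for the change of the clone A1 effect and for the WT pairs. Log2 CPM used a prior count of 2. Alternatives were DESeq2 1.42.0, RLE factors, a filter at a mean count of 10, a replicate block by experiment number, 1 fit of all 10 libraries and each library left out in turn.

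The experiment numbers are shared between groups per the labels. After removal of the group mean, same-numbered WT and clone A1 libraries correlated at 0.468, 0.474, 0.526 and 0.524, clone A2 with clone A1 at 0.0080 and 0.0909, and clone A2 with WT at 0.0208 and 0.159. With the mean of the experiment pair removed too, the correlations were 0.0844 to 0.151. The block is therefore given as an alternative.

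The members and gene lists were chosen with earlier results of these data known. Differences of SPARC in all comparisons, and of SNAI2 in all but experiments 10 and 11, involve the libraries that served to choose them and are given with no p. This leaves out the planned tests of SPARC between the WT pairs and of SNAI2 between the clones. The text names the members, SAMHD1, up to 4 list genes past the threshold in each direction per list and comparison, levels of markers, and the genes with the highest (and for SPARC and SNAI2 the lowest) correlation of log2 CPM with a member over genes with a mean of at least 1 CPM. ZEB1, SNAI1 and FSTL1 were named after their values were seen. Some genes that this rule names are not reported here. Scripts were tested on simulated data.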

Additional observations from a re-analysis of the deposited data

Results flagged for a closer look

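ESRP2 differed between the experiment pairs in how it stood to WT in clone A1. The difference itself was tested, and from the earlier to the later experiment pair the log2 fold change of clone A1 against WT moved by −2.12 (edgeR adjusted p = 7.03e-05, adjusted p up to 0.00159 over 13 alternatives).

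The clones also differed from each other in experiments 15 and 16, where ESRP2 was lower in clone A2 than in clone A1 (log2 fold change −3.02, edgeR adjusted p = 1.20e-04, lower in 2 of 2 libraries).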

How the results depend on the processing

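Of 476 values of the 7 genes under alternatives (42 fold changes), 458 kept their direction, and the test results of ESRP2 kept their side of the threshold in every alternative run. The 476 values include SPARC and SNAI2 between libraries used to choose them, where a kept direction follows in part from that choice. With a replicate block by experiment number, the counts of called genes were 3237 and 4511 (clones A1 and A2 against WT, experiments 15 and 16), 1947 (between the clones), 229 (clone A1, experiments 10 and 11), 1081 (change of the clone A1 effect) and 3759 (WT pairs), the change of EPCAM turned to 0.017, and EPCAM in clone A1, ESRP1 between the clones and VIM between the WT pairs passed the threshold. The block changed no other call of the 7 genes. Of 144 counts of called list genes, by list, direction and comparison, 45 moved by more than a set ratio with the block. The list counts above are from the fits with no block. A fit of all 10 libraries gave 1147 genes for clone A1 in experiments 15 and 16 and 27 in experiments 10 and 11, and DESeq2 gave 23 in experiments 10 and 11 and 402 for the change. The cause of these shifts was not tested.

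With each library left out in turn, called genes numbered 920 to 1847 (clone A1, experiments 15 and 16), 1768 to 3205 (clone A2), 497 to 932 (between the clones), 19 to 3144 (clone A1, experiments 10 and 11, highest without WT of experiment 10), 70 to 1163 (change) and 612 to 3713 (WT pairs). The group left with 1 library is then assumed to vary like the others. Signs turned for VIM (−0.026 to 0.058) and CDH1 (−0.12 to 0.60) in clone A1 and for CDH1 (−0.48 to 0.28) and EPCAM (−0.39 to 0.31) in clone A2 against WT in experiments 15 and 16, for CDH1 between the clones (−0.75 to 0.055), for SNAI2 (−0.0073 to 0.13) and ESRP1 (−0.083 to 0.0013) in clone A1 of experiments 10 and 11, for EPCAM in the change (−0.25 to 0.30) and for ESRP1 between the WT pairs (−0.080 to 0.0057), none of them past the threshold. CDH1, EPCAM, SPARC in clone A1 and in WT of experiment 10 (88 reads), and ESRP2 in clone A2 and in clone A1 of experiments 15 and 16 (80 and 61 reads) rest on under 100 reads per library, which limits what can be detected for them.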
